A study of Mus musculus with 6 samples.

Results

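The genes described here are 10 genes of antigen receptor recombination and of the thymus. They are the recombination enzymes Dntt, Rag1 and Rag2, the thymocyte genes Ptcra, Arpp21 and Ccr9, and the thymic stroma genes Psmb11, Prss16, Ccl25 and Aire. They were measured by 21 of 45037 probe sets on Affymetrix whole-genome mouse arrays, each annotated to exactly 1 of the 10 symbols. The genes were listed by function, but with results of the same comparison in view, so their levels in the groups compared are given as a description, with no test. Total RNA of whole lung at postnatal day 15 was hybridised, 1 array per sample, for 3 control and 3 Foxa2-/- samples. The genotype label of the controls reads wildtype, that of the others Foxa2-/-, and both groups carry the strain label SPC(+)Cre(-) with doxycycline (Dox) from embryonic day 6.5 to 12.5. SPC is a usual short name for surfactant protein C, a product of the distal lung epithelium, but the labels do not say what it drives, and Cre(-) stands beside both genotypes. The design text asks how the loss of Foxa2, a forkhead factor that directs gene expression in lung epithelium, bears on Th2 inflammation and goblet cells.

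Lymphocytes assemble their antigen receptor genes by V(D)J recombination. The Rag1 and Rag2 proteins form the enzyme that cuts the DNA beside the gene segments, the general end-joining machinery seals the breaks, and Dntt, also called TdT, adds bases without a template at the joints. T cell precursors do this in the thymus, which lies in the chest above the heart, and B cell precursors in fetal liver and bone marrow; mature lymphocytes of the lung no longer need these enzymes. Thymic epithelial cells attract, feed and select the precursors.

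Foxa2 signal followed the genotype label. It read 10.28, 10.56 and 10.28 in control replicates 1 to 3 and 7.72, 5.38 and 5.13 in Foxa2-/- replicates 1 to 3 (log2 RMA signal, a background-corrected and equalised array value). All 9 genes of a lung identity list, among them the surfactant gene Sftpa1, gave a summed linear signal of 114321 to 118234 in controls and 109839 to 120124 in Foxa2-/- lungs. Their median difference was -0.07, with Sftpa1 at 0.32 and Cldn18, a lung claudin, at -0.35. Array medians lay between 7.85 and 7.91, and the 25th percentiles between 5.69 and 5.78. Values below the latter are called dim, since the deposited values do not show whether they exceed background. RNA integrity was read from the Gapdh control probe sets, whose 3-prime signal exceeded the 5-prime signal by an average of 1.16 ± 0.09 in controls and 0.95 ± 0.03 in Foxa2-/- lungs (log2, SD, n = 3 each). The part of this difference in the results below was not tested. Control replicate 2 and Foxa2-/- replicates 2 and 3 share the number that opens their sample titles, whose meaning is not given. A difference among these 3 samples is called within the shared number. With 3 arrays a group, the number of arrays limits the precision, and nothing in the labels says that each array is a separate animal.

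The 250 bases before the annotated start of 5 of the genes are printed from RefSeq (assembly GRCm38.p6) and read in the direction of transcription. The table held 9 of the 10 genes, Prss16 being the exception. Dntt and Rag1 are shown because they differed most between the groups, Rag2 because it neighbours Rag1 on chromosome 2 and differed less, Ptcra as a thymocyte gene, and Psmb11 as a gene of thymic epithelium. Capitals mark matches to 5 short motifs.
Dntt, chr19:41029025-41029274, plus strand: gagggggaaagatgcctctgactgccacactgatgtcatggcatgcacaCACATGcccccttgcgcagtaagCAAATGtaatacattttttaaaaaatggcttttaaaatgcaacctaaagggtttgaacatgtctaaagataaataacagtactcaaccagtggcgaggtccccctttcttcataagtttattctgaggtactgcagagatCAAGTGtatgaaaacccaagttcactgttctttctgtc
Rag1, chr2:101649533-101649782, minus strand: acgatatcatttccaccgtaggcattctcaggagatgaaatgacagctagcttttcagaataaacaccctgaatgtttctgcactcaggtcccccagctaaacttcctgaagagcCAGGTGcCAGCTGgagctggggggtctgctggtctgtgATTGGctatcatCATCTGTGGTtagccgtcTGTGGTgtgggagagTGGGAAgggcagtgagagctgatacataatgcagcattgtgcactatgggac
Rag2, chr2:101624462-101624711, plus strand: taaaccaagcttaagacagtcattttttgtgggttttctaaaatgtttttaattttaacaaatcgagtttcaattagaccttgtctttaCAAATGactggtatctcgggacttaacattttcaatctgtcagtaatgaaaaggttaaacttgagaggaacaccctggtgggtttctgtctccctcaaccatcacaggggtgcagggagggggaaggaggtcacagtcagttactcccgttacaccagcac
Ptcra, chr17:46763713-46763962, minus strand: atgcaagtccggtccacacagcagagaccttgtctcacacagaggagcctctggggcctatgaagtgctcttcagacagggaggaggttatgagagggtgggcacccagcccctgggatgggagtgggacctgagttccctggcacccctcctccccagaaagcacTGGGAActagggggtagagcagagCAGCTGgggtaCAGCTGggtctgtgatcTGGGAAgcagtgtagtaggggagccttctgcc
Psmb11, chr14:54625060-54625309, plus strand: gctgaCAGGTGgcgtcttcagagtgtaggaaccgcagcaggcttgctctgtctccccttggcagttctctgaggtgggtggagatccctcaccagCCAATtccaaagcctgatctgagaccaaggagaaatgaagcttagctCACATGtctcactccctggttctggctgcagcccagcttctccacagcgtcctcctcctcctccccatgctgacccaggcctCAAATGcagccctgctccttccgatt

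The motifs, searched on both strands, were the E box CANNTG, bound by the E proteins of early lymphocytes, the Runx core TGTGGT, the Ikaros-type core TGGGAA, the TATA box TATAAA and the CCAAT box CCAAT. Dntt holds 3 E boxes and none of the other motifs, and Rag2 1 E box alone. Rag1 holds 3 E boxes, 2 Runx cores, 1 Ikaros-type core and 1 CCAAT box read on the opposite strand, and the E box from base -85 to -80 overlaps the Runx core from -81 to -76. Ptcra holds 2 E boxes between 2 Ikaros-type cores within 84 bases of its start. Psmb11 holds 3 E boxes and 1 CCAAT box. None of these 5 windows holds TATAAA, and the Dntt promoter is a textbook case of one without a TATA box. Of 32851 promoter windows of the same length, 66.2% hold an E box, 14% a Runx core, 21.6% an Ikaros-type core, 12.4% a TATA box and 33.8% a CCAAT box. A match is a description of letters only.

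**Figure D1:**
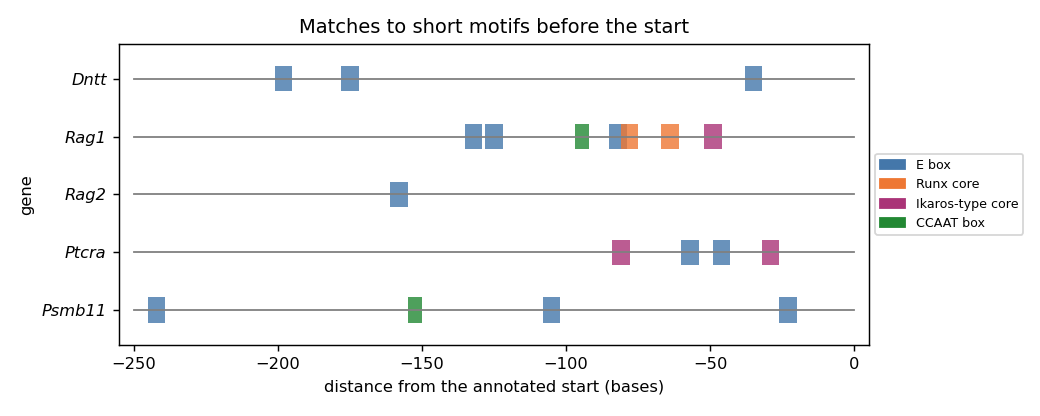
Motif matches in the 250 bases before the annotated start of 5 genes, with distance from the start in bases on the horizontal axis. Each block is a match, coloured by motif. Rag1 carries 7 matches, all within 135 bases of its start, and Rag2 carries 1.

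Dntt and Rag1 signal was far higher in every Foxa2-/- lung than in any control. The brightest Dntt probe set, 1449757_x_at, read 7.69, 7.05 and 5.67 in control replicates 1 to 3 and 11.03, 11.44 and 10.17 in Foxa2-/- replicates 1 to 3. The lowest Foxa2-/- value lay 2.49 log2 units above the highest control. The group means were 6.80 ± 1.03 and 10.88 ± 0.64 (log2, SD, n = 3 each), a difference of 4.08 or 16.9-fold. In these bulk samples more cells of a kind and more RNA per cell cannot be told apart. The suffix x marks a probe set that may also bind other transcripts, and the remaining 2 Dntt probe sets, 1420166_at and 1450545_a_at, carry no such mark. They differed by 4.34 and 3.53, and both ordered the 6 arrays as the first did. Within the shared number the 3 probe sets differed by 3.76, 3.89 and 3.49.

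Rag1, the catalytic subunit of the recombinase, was measured by 1 probe set. It read 7.28, 6.93 and 5.07 in control replicates 1 to 3 and 10.76, 11.24 and 9.99 in Foxa2-/- replicates 1 to 3. Its array order is that of Dntt, with replicate 2 highest among the Foxa2-/- lungs and control replicate 3 lowest of all. The group means were 6.42 ± 1.19 and 10.66 ± 0.63 (log2, SD, n = 3 each), a difference of 4.24 or 18.9-fold, and of 3.68 within the shared number. Control replicate 3 was dim for both genes, so the size of the folds rests in part on values not shown to exceed background. Without control replicate 3 the difference was 3.51 for Dntt and 3.56 for Rag1. The Foxa2-/- lung that kept the most Foxa2 signal, replicate 1, did not have the lowest Dntt or Rag1. That is a single array, and a relation of these genes to the remaining Foxa2 signal was not tested.

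Rag2, the partner that the recombinase needs for cutting, differed less and mainly in 1 array. It read 5.24, 5.07 and 5.30 in controls, all dim, and 5.59, 7.39 and 5.63 in Foxa2-/- replicates 1 to 3. The groups do not overlap, but replicates 1 and 3 were also dim and lay only 0.29 and 0.33 above the highest control. The difference of means was 1.00, and 0.41 without Foxa2-/- replicate 2. Rag1 in the same comparison was 3.95, so the 2 genes of the recombinase did not show the same array pattern on these probe sets.

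The genes of thymocytes were higher too. Ptcra encodes pre-T alpha, which pairs with a new T cell receptor beta chain at the first checkpoint of thymocyte development. It read 4.02, 4.43 and 4.45 in controls, all dim, and 5.84, 7.19 and 5.07 in Foxa2-/- replicates 1 to 3. Every Foxa2-/- array lay above every control, and replicate 3 was itself dim. The difference was 1.73, and 1.16 without replicate 2. Arpp21, a phosphoprotein abundant in immature thymocytes and in brain, had 5 probe sets. The brightest, 1451280_at, read 4.29, 4.25 and 4.40 in controls and 6.04, 6.68 and 6.20 in Foxa2-/- lungs. The controls were dim and close together, and the 3 Foxa2-/- arrays lay 1.64 or more above them. Its difference was 2.00 and was 1.81 without replicate 2, so it did not rest on that array. The remaining Arpp21 probe sets differed by 0.18 to 2.39; 3 of the 5 were dim in all arrays, and in 1 of those, 1440429_at, the groups overlap.

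Ccr9 is the receptor by which thymocytes and gut-homing lymphocytes sense the chemokine Ccl25. Its brightest probe set, 1421920_a_at, read 7.27, 7.26 and 5.34 in controls and 8.30, 9.29 and 8.23 in Foxa2-/- replicates 1 to 3. The groups do not overlap, and control replicate 3 is again the lowest array, and dim. The difference was 1.99, or 3.96-fold, and 1.34 without control replicate 3. Over its 5 probe sets the differences ran from 0.32 to 2.02, and in 4 of the 5 every Foxa2-/- array lay above all controls. The largest, 2.02, came from 1427419_x_at, which has the suffix x and may also bind other transcripts. Probe set 1436065_at overlapped, with Foxa2-/- replicate 2 (5.47) below control replicate 3 (5.54).

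**Figure D2:**
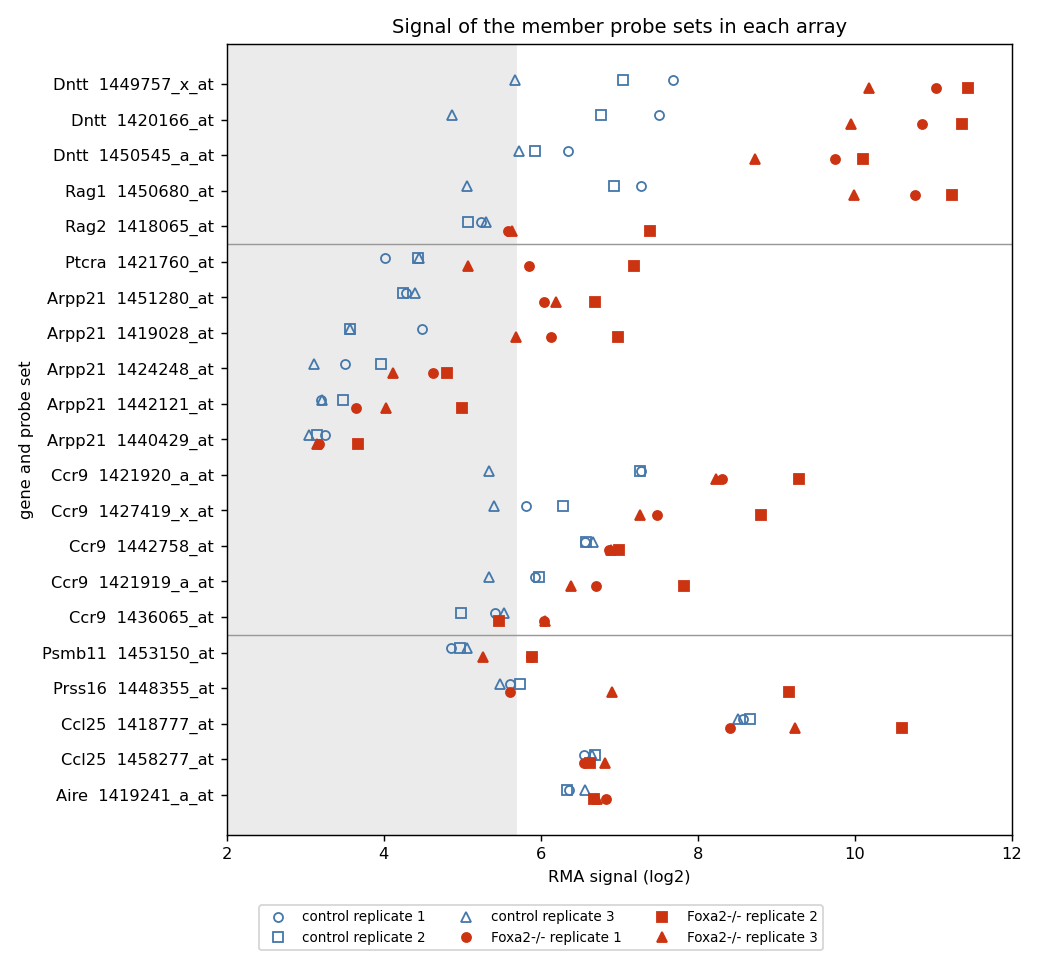
Log2 RMA signal (horizontal axis) of the 21 probe sets, grouped by role, in each of the 6 arrays; open blue symbols are controls, filled red symbols Foxa2-/- lungs, and the grey zone lies below the lowest 25th percentile of the arrays (5.69). The Dntt and Rag1 probe sets separate the groups by more than 2 log2 units, whereas the Prss16 and Ccl25 probe sets overlap.

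The genes of thymic stroma did not move as a block. Prss16, a serine protease of cortical thymic epithelium, read 5.60, 5.73 and 5.48 in controls and 5.60, 9.16 and 6.90 in Foxa2-/- replicates 1 to 3. Replicate 1 thus sat inside the control range and was dim, as were control replicates 1 and 3, while replicate 2 was 3.56 above the control mean. Ccl25, the thymic and intestinal chemokine that binds Ccr9, behaved alike in its brighter probe set, 1418777_at. That probe set read 8.57, 8.67 and 8.51 in controls and 8.41, 10.60 and 9.24 in Foxa2-/- replicates 1 to 3. Replicate 1 lay below all controls, and replicates 2 and 3 above them. The differences of means, 1.62 for Prss16 and 0.83 for Ccl25, were 0.65 and 0.24 without replicate 2 and 2.43 and 1.34 without replicate 1. The dimmer Ccl25 probe set, 1458277_at, differed by 0.04.

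Psmb11 encodes the proteasome subunit beta-5t, made by cortical thymic epithelium. It read 4.86, 4.97 and 5.06 in controls and 5.87, 5.89 and 5.27 in Foxa2-/- replicates 1 to 3. All controls and replicate 3 were dim, and the difference was 0.71. Aire, which lets medullary thymic epithelium express genes of other tissues, read 6.36, 6.34 and 6.56 in controls and 6.83, 6.67 and 6.72 in Foxa2-/- lungs. Its groups do not overlap, yet the difference was 0.32 and the gap between them 0.11.

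Taken as 21 probe sets, 16 had every Foxa2-/- array above every control and none had every one below. Over all probe sets, 9.73% lay above and 7.76% below in this way. All 21 differences were positive, beside 51.1% of all probe sets, and their median was 1.23, beside 0.01 over all. By role, the groups did not overlap in 5 of 5 recombination probe sets, 9 of 11 thymocyte probe sets and 2 of 5 stromal ones, with median differences of 4.08, 1.23 and 0.71. Since the genes were listed with this comparison in view, nothing further is read from these counts. The median was 1.44 within the shared number and 0.80 without Foxa2-/- replicate 2.

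The Foxa2-/- arrays differed among themselves. Foxa2-/- replicate 2 was the highest of the 6 arrays in 18 of the 21 probe sets, where it was so in 12.3% of all probe sets. Control replicate 3 was the lowest control in 11 of the 21, beside 35.2% of all. Replicate 1 lay above all controls in 5 of 5 recombination, 10 of 11 thymocyte and 2 of 5 stromal probe sets, beside 42.3% of all probe sets. Replicate 2 did so in 5, 10 and 4 of them, beside 24.7% of all, and replicate 3 in 5, 10 and 5, beside 24.8%. These backgrounds differ, so the counts are not set against each other. Replicate 1 had Dntt and Rag1 values 4.23 and 4.34 above the control mean, and Prss16 and Ccl25 values at or below it.

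**Figure D3:**
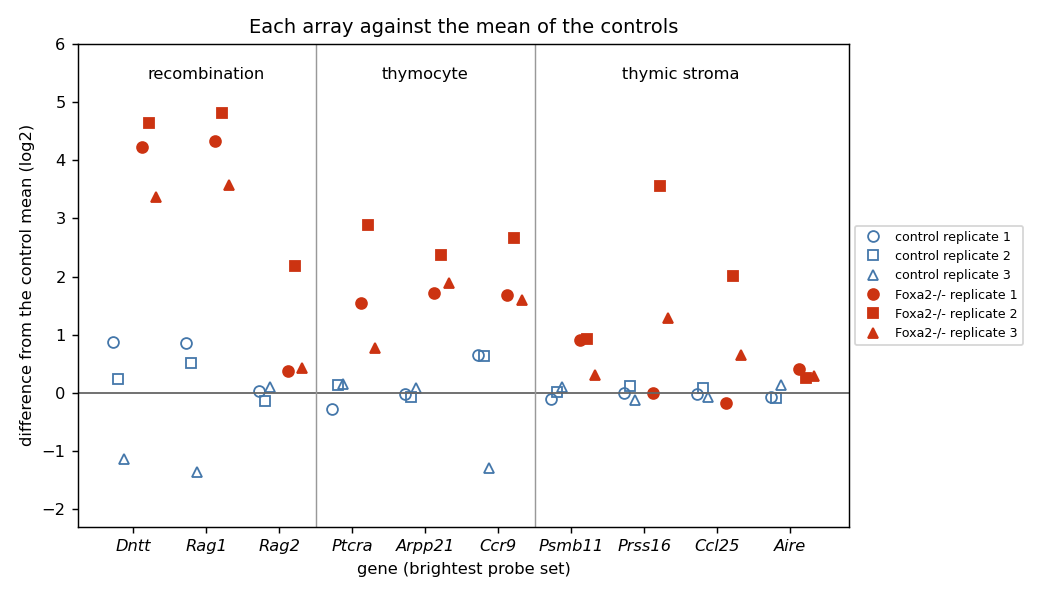
Difference of each array from the mean of the 3 controls (log2, vertical axis) for the brightest probe set of each of the 10 genes (horizontal axis); open blue symbols are controls and filled red symbols Foxa2-/- lungs. All Foxa2-/- symbols stand at least 3.37 above the control mean for Dntt and Rag1, whereas Prss16 and Ccl25 stand above all controls in replicates 2 and 3 and not in replicate 1.

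For context, 17 further gene lists with 167 measured genes were read from a limma fit over 18193 genes, each by its brightest probe set. That fit called 0.572% of all genes, 0.473% higher and 0.0989% lower in Foxa2-/- lungs, at a Benjamini-Hochberg adjusted p under 0.05. Of the 167 genes, 1 rose, the chemokine Ccl17, and none fell; at an unadjusted p under 0.05 limma had 33 higher and 3 lower. Over all genes 12.3% had such a p, 7.28% higher and 5.07% lower, and these shares are the background of the unadjusted counts given for each list. Ccl17, which draws Ccr4-bearing T cells and is also made in the thymic medulla, read 9.39, 10.10 and 9.29 in controls and 11.82, 12.51 and 11.75 in Foxa2-/- lungs. All Foxa2-/- arrays lay above the controls, by 2.44 on average (SE 0.29, limma adjusted p = 0.036). The call was lost when most single arrays were left out: with any 1 of the 3 controls, Foxa2-/- replicate 2 or Foxa2-/- replicate 3 left out, no gene of the lists passed, and without Foxa2-/- replicate 1 limma called 4. It was also lost with the title number as a fixed block (limma adjusted p = 0.308) and, narrowly, with cyclic loess scaling (limma adjusted p = 0.0502). Over the alternatives run the difference of Ccl17 was 2.04 to 2.69 and its limma adjusted p 0.0122 to 0.308.

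The end-joining genes that complete recombination did not follow Dntt and Rag1. Of 14 measured, limma called none at the adjusted threshold and 1 at an unadjusted p under 0.05, and their median difference was -0.08, beside 0.01 over all genes. The members with the smallest p were Xrcc4, the partner of DNA ligase IV (-0.54, SE 0.22, limma adjusted p = 0.401), and Rad50, of the break-sensing complex (-0.36, SE 0.15, limma adjusted p = 0.41). Polm, a polymerase related to Dntt, named after its values were seen, averaged 8.14 ± 0.26 in controls and 8.31 ± 0.06 in Foxa2-/- lungs (log2, SD, n = 3 each).

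Genes of double-positive thymocytes, the stage that carries both Cd4 and Cd8, had a median difference of 0.68 over 14 genes, 0.36 without Foxa2-/- replicate 2 and 0.37 within the shared number. Limma called none and had 5 higher at an unadjusted p under 0.05, and 5 had every Foxa2-/- array above all controls, beside 10.8% of all genes. Cd8a, a coreceptor chain also used by mature killer T cells, read 8.38, 9.73 and 6.72 in controls and 10.35, 11.33 and 9.96 in Foxa2-/- replicates 1 to 3. Replicate 3 stood only 0.23 above control replicate 2. The difference of 2.27 (SE 0.76, limma adjusted p = 0.297) was 0.91 within the shared number. Aqp11, a water channel on this list, differed by 0.73 (SE 0.26, limma adjusted p = 0.315).

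Mature T cell genes had a median difference of 0.85 over 15 genes, with none called and 1 at an unadjusted p under 0.05. Their median per array ran from -0.87 to 0.68 in controls and from 0.36 to 1.39 in Foxa2-/- lungs, so the groups overlap. The median difference was 0.13 within the shared number, 0.39 without control replicate 3 and 0.47 without Foxa2-/- replicate 2. Thy1, a surface protein of thymocytes and T cells, differed by 1.13 (SE 0.46, limma adjusted p = 0.388), and the checkpoint receptor Ctla4 by 0.76 (SE 0.32, limma adjusted p = 0.418). Summed linear signal of the list was 7874 to 15258 in controls and 12431 to 22166 in Foxa2-/- lungs. Some genes of the list are bright in all lungs here, so that sum is not specific to T cells. Control replicate 3, lowest for Dntt, Rag1 and the brightest Ccr9 probe set, also had the lowest median T cell level. The part of T cells in the differences of the 10 genes was not tested.

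Early thymocyte progenitor genes, among them the receptor Notch1 that commits cells to the T lineage, had a median difference of 0.05 over 14 genes, with none called and, at an unadjusted p under 0.05, 3 higher and 1 lower. Those with the smallest p were Il2ra, the interleukin-2 receptor chain of early thymocytes and regulatory T cells (0.84, SE 0.30, limma adjusted p = 0.331), and Lyl1, a helix-loop-helix factor (0.58, SE 0.20, limma adjusted p = 0.318). Progenitor genes of marrow had a median of 0.03 over 10 genes, with none called and 1 at an unadjusted p under 0.05. Of these, Ikzf1, which encodes Ikaros, differed by 0.86 (SE 0.25, limma adjusted p = 0.221) and the receptor Flt3 by 0.82 (SE 0.40, limma adjusted p = 0.479). Several genes of both lists are bright in all lungs here, so the list medians are not specific to progenitors.

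B cell precursors also use Dntt, Rag1 and Rag2. Their list had a median difference of 0.34 over 14 genes, with none called and 1 at an unadjusted p under 0.05. Single arrays moved this median, to 0.11 without control replicate 3, 0.14 without Foxa2-/- replicate 1 and 0.60 without Foxa2-/- replicate 3. Summed linear signal was 23652 to 26321 in controls and 23303 to 28639 in Foxa2-/- lungs, so the groups overlap. Some genes of the list are bright in all lungs here, so this sum is not specific to B cell precursors. Blnk, an adaptor of the B cell receptor, differed by 0.95 (SE 0.23, limma adjusted p = 0.165), and Cd22, a B cell lectin, by 0.67 (SE 0.28, limma adjusted p = 0.412). Vpreb1 and Igll1, which form the surrogate light chain and define the precursor stage, were named after their values were seen. Their differences were 0.59 and 0.54, and both had overlapping groups. The part of B cell precursors was not tested.

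Of 11 further genes of thymic epithelium, limma called none and 2 were higher at an unadjusted p under 0.05, and the median difference was -0.03. Some of these are bright in all lungs here, so the summed signal of 9638 to 10605 in controls and 9976 to 10829 in Foxa2-/- lungs is not specific to thymus. Foxn1, the master regulator of thymic epithelium, named after its values were seen, read 5.79 to 5.90 in controls and 5.63 to 5.94 in Foxa2-/- lungs, close to the dim level in all 6 arrays. Tbata, a gene of thymic stroma and testis, read 6.66, 5.37 and 6.33 in controls and 7.58, 9.59 and 7.67 in Foxa2-/- replicates 1 to 3. Like Prss16 and the brighter Ccl25 probe set, Tbata was highest in replicate 2, but replicate 1 too lay above all controls. Tbata differed by 2.16 (SE 0.60, limma adjusted p = 0.21), 1.51 without replicate 2. Pax9, a paired-box factor of the pharyngeal pouches, differed by 1.54 (SE 0.30, limma adjusted p = 0.0968) and was highest in replicate 3. The part of thymic tissue in the arrays was not tested.

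Epithelial genes that thymus and lung share had a median difference of 0.31 over 11 genes, all 11 positive, with none called and 4 at an unadjusted p under 0.05. Krt8, a keratin of simple epithelium, differed by 0.55 (SE 0.16, limma adjusted p = 0.221), and Cd83, a protein of mature dendritic cells and thymic epithelium, by 0.71 (SE 0.24, limma adjusted p = 0.304). The catalytic proteasome subunits related to Psmb11 had a median of 0.46 over 6 genes, with none called and 4 at an unadjusted p under 0.05. Those with the smallest p were the immunoproteasome subunits Psmb10 (0.53, SE 0.11, limma adjusted p = 0.106) and Psmb8 (1.00, SE 0.23, limma adjusted p = 0.144). Psmb9, the third immunoproteasome subunit, named after its values were seen, differed by 1.03. The 10 signals of thymocyte trafficking, Ccl17 included, had a median of 0.38, with 4 at an unadjusted p under 0.05. Their median was 0.24 without control replicate 3 and 0.08 over the probe sets brighter than the 25th percentile.

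Cell division genes, which are active in dividing thymocytes as in other dividing cells, had a median difference of 0.80 over 13 genes, 0.51 without Foxa2-/- replicate 2 and 0.47 without control replicate 3. All 13 were positive, none was called and 5 had an unadjusted p under 0.05. Birc5, which encodes survivin, differed by 1.50 (SE 0.40, limma adjusted p = 0.195) and Mcm6, a replication helicase subunit, by 0.61 (SE 0.20, limma adjusted p = 0.295). The list median per array was lowest in control replicate 3 (-0.72) and highest in Foxa2-/- replicate 2 (1.21), the arrays with the lowest and the highest Dntt and Rag1. Unlike those genes, the list overlapped between groups, with 0.30 and 0.31 in control replicates 1 and 2 and 0.27 in Foxa2-/- replicate 3. The part of dividing cells was not tested.

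**Figure D4:**
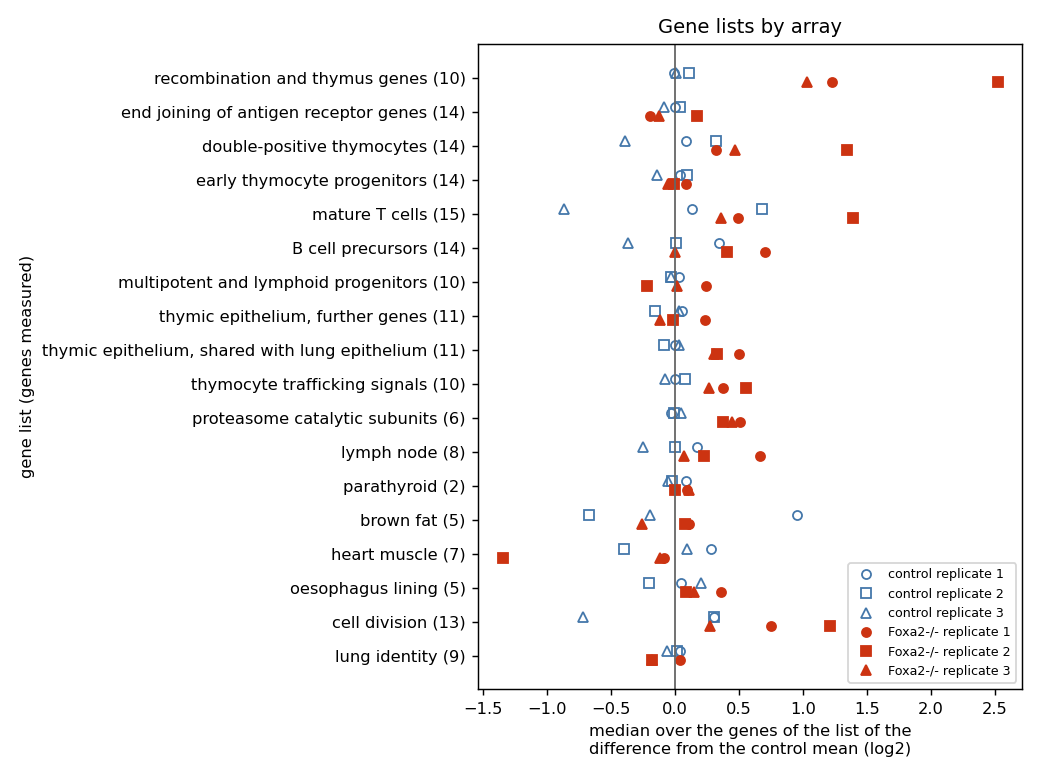
Median over each gene list of the difference from the control mean (log2, horizontal axis), for each of the 6 arrays; open blue symbols are controls and filled red symbols Foxa2-/- lungs, and the number of measured genes follows each list's name. The 10 recombination and thymus genes separate the groups, with 1.03 to 2.52 in Foxa2-/- lungs, and 4 of the other lists also separate them, by less: double-positive thymocytes, shared epithelium, trafficking signals and proteasome subunits. Double-positive thymocytes barely do so, with 0.318 in control replicate 2 and 0.322 in Foxa2-/- replicate 1. The remaining lists overlap, among them mature T cells, B cell precursors and end joining. Cell division overlaps narrowly, with 0.31 in control replicate 2 and 0.27 in Foxa2-/- replicate 3.

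Among 3598 genes that varied by at least 1 log2 unit over the 6 arrays, the profiles most like that of Dntt were ranked by Pearson's r, with the 10 genes themselves and predicted genes left out, a description with no test that mostly reflects the split between the groups. Dntt and Rag1 had r = 0.998 with each other. Outside the 10 genes, the nearest to Dntt was Acp5, the tartrate-resistant acid phosphatase of macrophages and osteoclasts, with r = 0.999. It read 10.16, 9.85 and 9.25 in controls and 11.42, 11.65 and 11.05 in Foxa2-/- lungs, the same order as Dntt and Rag1 with a difference of 1.62. After Acp5 came Fgr, a Src-family kinase of myeloid cells (r = 0.996), the immunoglobulin segment Igkv9-120 (0.990), the lectin Cd209d (0.990), Itm2a, a membrane protein of T cell precursors and other tissues (0.988), and the proton channel Hvcn1 (0.987). For Rag1 the nearest outside the 10 genes were Acp5 (0.997), the kinase Syk (0.992), Fgr (0.991), Pld4 (0.991), Hvcn1 (0.990) and H2-DMa, which loads peptides onto class II molecules (0.990). The 9 different genes of the 2 rankings differed by 0.75 to 1.62, all less than Dntt and Rag1.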

How the data were processed

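The authors deposited log2 signal values made with RMA, per the submitters' processing notes, with the version not given in the sources used here. RMA equalises the arrays, so a shift of most genes one way would not be seen, and differences between low values may be compressed. No 2 arrays were identical.

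From these values, 64 control probe sets were left out and 45037 kept, with no filter on dim signal. Symbols came from the platform annotation, with 34945 probe sets having 1 symbol, 932 several and 9160 none. Each of 18193 genes was represented by its brightest single-symbol probe set. The null minus control difference was fitted in R 4.3.3 with limma 3.58.1 (lmFit and eBayes without covariates, two-sided, Benjamini-Hochberg over all genes). The limma fit was tested on simulated data. No overlap between groups means that all 3 null values lie beyond all 3 control values. The p-values reflect only the spread between arrays, part of which may be technical. Replicate numbers follow accession order and pair nothing.

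The members, gene lists and tests were chosen with earlier results of these data known. From each list, up to 3 genes that passed, or else the 2 with the smallest p, are named, and 6 genes by likeness to Dntt and to Rag1, leaving out the members and predicted genes. Polm, Psmb9, Vpreb1, Igll1, Foxn1, Notch1, Ucp1, Glycam1 and Myh6 were named outside this rule. Alternatives were other array scalings, brightness filters, array weights, trend and robust settings, blocks by title number (statmod 1.5.0), each sample left out, gene values averaged over probe sets and a looser threshold.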

Additional observations from a re-analysis of the deposited data

How the results depend on the processing

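Of 21 probe sets of the 10 genes, those with no overlap between the groups numbered 16 as reported and 16 with equalised medians or cyclic loess. They numbered 19 within the shared title number and 16 to 18 with any array left out. Comparing fewer arrays can only keep or raise such a count, so those counts say nothing about stability. A filter at the 25th percentile of brightness left 12 of the 21, of which 9 had no overlap, and one at the median left 4, of which 3 had none. Their median differences were 1.80 and 4.16. These filters use the mean over all 6 arrays, and 2 of the 12 and 3 of the 4 passed with a control mean at or below the limit, so these values say nothing about stability. The median difference of 1.23 was 0.80 to 1.52 with any array left out. Of 205 alternative values for single probe sets, 204 moved by less than the spread between replicates. The exception was Arpp21 1424248_at, with a difference of 0.50 within the shared number. A brightness filter cannot change the difference of a probe set that it keeps. With 3 arrays a group, leaving 1 out cannot move a difference by as much as that spread. Most of the 205 values could therefore not have counted as moved, and the 204 say nothing about stability. Rag2 is among them, with 1.00 as reported and 0.41 without Foxa2-/- replicate 2. Of 253 alternative list medians 234 moved by less than the spread between replicates. These include the medians under trend and robust settings, which leave every difference as it was and so could not move. Genes called, 104 as reported, numbered 320 at an adjusted p under 0.1, 48 with cyclic loess, 607 with array weights, 0 with the title number as a fixed block (2121 at an unadjusted p under 0.05 in limma), 399 with it as a random block and 0 to 249 with an array left out. Probe sets called, 45 as reported, numbered 232, 6, 564, 0 (4507 at an unadjusted p under 0.05), 279 and 0 to 144 in that order, and 72 with trend and robust settings. Of the 167 genes of the further lists, limma called 1 as reported, 6 at an adjusted p under 0.1, 0 with cyclic loess, 9 with array weights, 0 with the fixed block, 6 with the random block and 0 to 4 with an array left out. The causes were not tested. Replicate numbers follow accession order and pair nothing, so the title number served as the only block. Signal over background is not in the deposited values, which limits every dim probe set.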

Other observations

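Markers of other tissues near the lung varied from array to array, and limma called none of the 27 genes of the 5 lists over all genes; at an unadjusted p under 0.05 it had 2 genes of lymph node, 1 of oesophagus lining and none of the other lists. Heart muscle genes, which mouse pulmonary veins also express, had a median per array of -0.40 to 0.28 in controls, and of -0.09, -1.34 and -0.12 in Foxa2-/- replicates 1 to 3. Myh6, the cardiac myosin heavy chain, read 9.65 in Foxa2-/- replicate 2, the array with the highest Dntt, Rag1, Prss16 and Ccl25, and 11.48 to 12.24 in controls. Ucp1, the uncoupling protein of brown fat, read 9.08 in control replicate 1, against 6.46 and 6.18 in control replicates 2 and 3. Glycam1, a ligand made by high endothelial venules of lymph nodes and by mammary gland, read 7.72 in control replicate 3, the array with the lowest Dntt and Rag1, and 4.82 to 5.29 in the other arrays. The lymph node list as a whole went the other way, with its lowest median per array in control replicate 3 (-0.25). The parathyroid hormone gene Pth had means of 4.10 ± 0.12 in controls and 4.02 ± 0.05 in Foxa2-/- lungs (log2, SD, n = 3 each), both dim. The lining of the oesophagus had a median difference of 0.18 over 5 genes, of which Sprr1a, a cornified envelope protein also made by damaged epithelium, differed by 2.80 (SE 0.50, limma adjusted p = 0.0796). Of the same list Krt6a, a keratin, differed by 0.18. Lymph node genes had a median difference of 0.33 over 8 genes, 0.12 without Foxa2-/- replicate 1 and 0.21 without control replicate 3, those with the smallest p being the chemokine Cxcl13 (1.78, SE 0.35, limma adjusted p = 0.0974) and lymphotoxin beta, Ltb (0.90, SE 0.29, limma adjusted p = 0.28). Heart genes had a median of -0.59 over 7 genes, -0.15 without Foxa2-/- replicate 2, with -0.59 for the natriuretic peptide gene Nppa and -0.57 for the calcium channel gene Ryr2. Brown fat genes had a median of -0.22 over 5, 0.26 without control replicate 1 and -0.53 without control replicate 2, with -0.27 for Cox8b and 0.05 for Elovl3, and the other parathyroid gene, the calcium sensor Casr, differed by 0.22. The part of neighbouring tissue in the arrays was not tested.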
